A study of Mus musculus with 18 samples.

Results

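Mouse embryonic stem (ES) cells lacking Ring1a (Ring1a-KO) were set against wild-type ES cells (WT), with gene expression measured by RNA sequencing of total RNA. These 6 libraries, 3 of Ring1a-KO and 3 of WT, are part of a series of 18 libraries in 6 groups of 3. The other groups are a knockout of Ring1b (Ring1b-KO), a knockout of both genes (Ring1a/b-dKO), and the combined knockouts named Pcgf-4KO and Pcgf-6KO. The 6 libraries were chosen by their genotype labels alone, and all genes passing a filter on low values were described. The labels give no strain, clone, culture medium, day of culture or deleted exon for any of these groups. Nor is it stated that replicates were grown apart, so the p-values measure only the spread between these libraries, which may be technical.

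Ring1a, encoded by the gene Ring1, and its paralogue Ring1b, encoded by Rnf2, are the alternative RING-finger subunits of Polycomb repressive complex 1 (PRC1). PRC1 places ubiquitin on histone H2A and compacts chromatin, and it keeps developmental regulators such as the Hox genes silent in ES cells. A Pcgf protein pairs with either RING subunit and sets the type of PRC1, and Polycomb repressive complex 2 (PRC2), which methylates histone H3, often occupies the same genes. In ES cells Ring1b is the more abundant paralogue, and cells without both are known to lose repression of Polycomb targets.

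Values are TPM, a transcript level normalised for length and given relative to all transcripts of a library, and no read depth is known from them. Of 17842 genes tested, 14839 reached 1 TPM on average in Ring1a-KO or in WT, and 3003 were below 1 TPM in both. The filter asked for 1 TPM in at least 3 of 18 libraries. Within the 6 libraries of Ring1a-KO and WT 14411 genes passed it, and the rest entered with the help of the other knockouts. Differences are given as log2(TPM + 1) in Ring1a-KO minus WT with their standard error, a scale that understates the change of genes with low TPM. A gene was called changed at an adjusted p under 0.05 from limma, two-sided, with Benjamini-Hochberg adjustment over all 17842 genes.

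All 6 libraries carried the ES cell markers. The summed level of 8 such markers was 4235 to 4559 TPM in Ring1a-KO and 4529 to 4593 TPM in WT, and every marker was above 1 TPM in both groups. Between 14223 and 14421 genes reached 1 TPM in the Ring1a-KO libraries and 14207 to 14225 in the WT libraries. Short structural RNAs and rRNA took 0.21%, 2.88% and 1.32% of TPM in Ring1a-KO replicates 1, 2 and 3, and 0.327% to 0.452% in WT. The 7SK RNA gene Rn7sk stood at 17.86, 639.42 and 161.45 TPM in those Ring1a-KO replicates and at 16.36, 12.38 and 15.60 TPM in WT. Ring1a-KO replicates 2 and 3 were thus above every WT library in structural RNA, and the totals over all genes are also given without them. That fit holds 1 Ring1a-KO library, which is assumed to vary like the other groups, so calls are lost through fewer libraries too. The sums for other cell types were far below the ES sum. The 5 fibroblast markers summed to 15.4 to 17.2 TPM in Ring1a-KO and 12.8 to 15.3 TPM in WT, and the 7 primitive endoderm markers to 3.56 to 4.04 TPM in Ring1a-KO and 2.8 to 3.17 TPM in WT. The 4 mesoderm markers summed to 0.99 to 1.46 TPM in Ring1a-KO and 1.14 to 1.54 TPM in WT, and the 3 neuroectoderm markers to 2.94 to 3.07 TPM in Ring1a-KO and 3.27 to 4.59 TPM in WT. Bulk levels cannot tell a change in the number of cells of a type from a change in RNA per cell.

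The targeted gene was lower in Ring1a-KO but still present at the gene level. Ring1 (ENSMUSG00000024325, GRCm38 chr17:34020792-34024680) had 5.46, 3.83 and 2.86 TPM in Ring1a-KO and 7.42, 7.10 and 7.11 TPM in WT. All Ring1a-KO libraries lay below all WT libraries, with a difference of -0.73 ± 0.28 (SE), yet Ring1 was not called (adjusted p = 0.0705). Without Ring1a-KO replicate 1 the difference was -0.93 and Ring1 was called (adjusted p = 0.0417). A gene-level TPM does not show the loss of an exon, so Ring1 transcript carrying a deletion would still be counted. The mean for Ring1 was 9.87 ± 1.78 TPM in Ring1b-KO and 6.09 ± 3.33 TPM in Ring1a/b-dKO (SD, n = 3 each).

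The paralogue rose. Rnf2 had 92.56, 93.53 and 96.07 TPM in Ring1a-KO and 76.40, 71.45 and 65.92 TPM in WT, a difference of 0.40 ± 0.08 (adjusted p = 0.00216) with no overlap. Rnf2 averaged 94.1 ± 1.81 TPM and Ring1 4.05 ± 1.31 TPM in Ring1a-KO (SD, n = 3 each). In Ring1a/b-dKO and Ring1b-KO, where Rnf2 itself is targeted, its gene-level mean was 22.8 and 49.4 TPM. In WT the means were 71.3 ± 5.24 TPM for Rnf2 and 7.21 ± 0.182 TPM for Ring1, so Rnf2 was the more abundant of the pair in Ring1a-KO and in WT. With Ring1a-KO replicates 2 and 3 left out the difference of Rnf2 was 0.38, and its adjusted p was 0.064.

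Over all genes tested, 4123 (23.1%) were called, 2193 of them higher (12.3%) and 1930 lower (10.8%) in Ring1a-KO. Every count of list members below is to be read beside these shares of 12.3% and 10.8%. Most changes were small. The median size of a called difference was 0.41, and 302 genes (1.69%) were called with a change of at least 2-fold, 151 in each direction. Of these 302 genes, 29 passed 4-fold, 11 higher and 18 lower. The groups did not overlap for 3992 of the called genes. With 3 libraries per group a call largely implies this, and the share over all tested genes was not counted, so it adds no support. Without Ring1a-KO replicates 2 and 3 there were 2169 calls, 1412 higher and 757 lower, and 314 genes with at least a 2-fold change. Over all tested genes the root mean square log2 distance averaged 0.547 between Ring1a-KO and WT libraries, 0.487 within Ring1a-KO and 0.415 within WT. The distance from the Ring1a-KO libraries averaged 0.811 to Ring1b-KO and 0.925 to Ring1a/b-dKO.

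**Figure D1:**
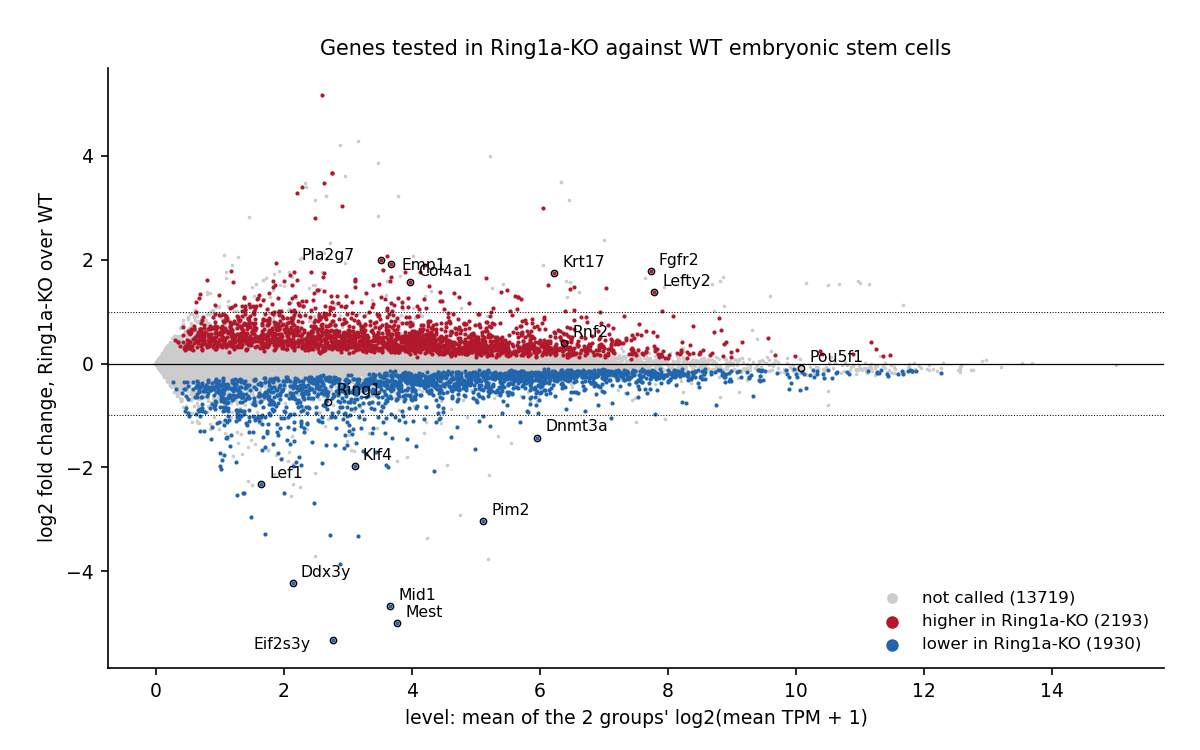
Difference of each of the 17842 tested genes (log2(TPM + 1), Ring1a-KO minus WT, vertical axis) against its mean level over both groups (horizontal axis). The 2193 higher and 1930 lower called genes are coloured, the uncalled genes are grey, and most called genes lie well within a 2-fold change.

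By the same choice of genes as for the falls below, the 12 largest rises included signalling, membrane and matrix genes of no single family. Pla2g7, a secreted phospholipase that cleaves platelet-activating factor, had 23.79, 19.56 and 22.11 TPM in Ring1a-KO and 4.14, 4.78 and 5.19 TPM in WT (2.00 ± 0.09, adjusted p = 5.13e-10). The groups were far apart. Cyp2s1, a cytochrome P450, averaged 34.7 ± 2.02 TPM in Ring1a-KO and 8.61 ± 0.423 TPM in WT (SD, n = 3 each). Krt17, an epithelial keratin, averaged 135 ± 6.93 TPM in Ring1a-KO and 39.7 ± 0.991 TPM in WT (SD, n = 3 each).

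Some of the largest rises varied between the Ring1a-KO libraries. Fgfr2, a receptor for fibroblast growth factors, had 140.59, 729.91 and 424.66 TPM in Ring1a-KO and 88.32, 120.04 and 99.81 TPM in WT (1.78 ± 0.49, adjusted p = 0.0165). Its order in Ring1a-KO was that of the structural RNA share, and its difference was 1.25 (adjusted p = 0.0792) without replicate 2 and 0.46 (adjusted p = 0.657) without replicates 2 and 3. The part of the structural RNA in this was not tested. The annotated span of Fgfr2 (chr7:130162451-133123350) also holds other genes, among them Ate1 and Bub3, so reads counted for Fgfr2 may not all be its own. Hist1h4k, a replication-dependent histone H4 gene, had 4.83, 10.91 and 11.22 TPM in Ring1a-KO and 0.96, 2.88 and 1.84 TPM in WT (1.77 ± 0.29, adjusted p = 0.00043). Slc14a2, a urea transporter, had 14.64, 19.10 and 27.24 TPM in Ring1a-KO and 3.43, 8.81 and 3.86 TPM in WT (1.80 ± 0.52, adjusted p = 0.0219). Hist1h4k belongs to a family of near-identical histone genes, so its reads are assigned with uncertainty. Neither gene overlapped between groups, as the choice required, and Slc14a2 lost its call in 5 of 17 alternative settings.

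By the same choice of called genes without overlap as for the rises, the 12 largest falls included Y chromosome genes, an imprinted gene and a kinase. Mest, a gene expressed from the paternal allele (chr6:30723547-30748465), had 1.44, 1.26 and 1.53 TPM in Ring1a-KO and 75.37, 77.87 and 74.84 TPM in WT. Its difference was -5.0 ± 0.06 (adjusted p = 3.20e-17). Mest was also low in Ring1a/b-dKO at 2.07 ± 0.191 TPM and high in Ring1b-KO at 46.4 ± 0.599 TPM (SD, n = 3 each). Copg2, which overlaps the 3′ end of Mest in the annotation, was at 23 ± 1.84 TPM in Ring1a-KO and 24.5 ± 0.382 TPM in WT (SD, n = 3 each) and was not called (adjusted p = 0.604). Because the counting is not stated to use strand, reads in the overlap of Mest and Copg2 cannot be assigned with certainty.

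Pim2, a serine/threonine kinase gene on the X chromosome, had 9.84, 10.86 and 12.51 TPM in Ring1a-KO and 97.23, 95.44 and 100.57 TPM in WT (-3.04 ± 0.11, adjusted p = 6.85e-11). Enpp2, which encodes the secreted enzyme autotaxin, averaged 0.7 ± 0.25 TPM in Ring1a-KO and 8.51 ± 0.667 TPM in WT (SD, n = 3 each). Rab25, an epithelial trafficking GTPase, averaged 1.52 ± 0.172 TPM in Ring1a-KO and 7.71 ± 0.397 TPM in WT (SD, n = 3 each). Each of these genes was low in every Ring1a-KO library, and each was also low in Ring1b-KO, where Pim2 averaged 9.59, Enpp2 0.363 and Rab25 1.59 TPM.

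**Figure D2:**
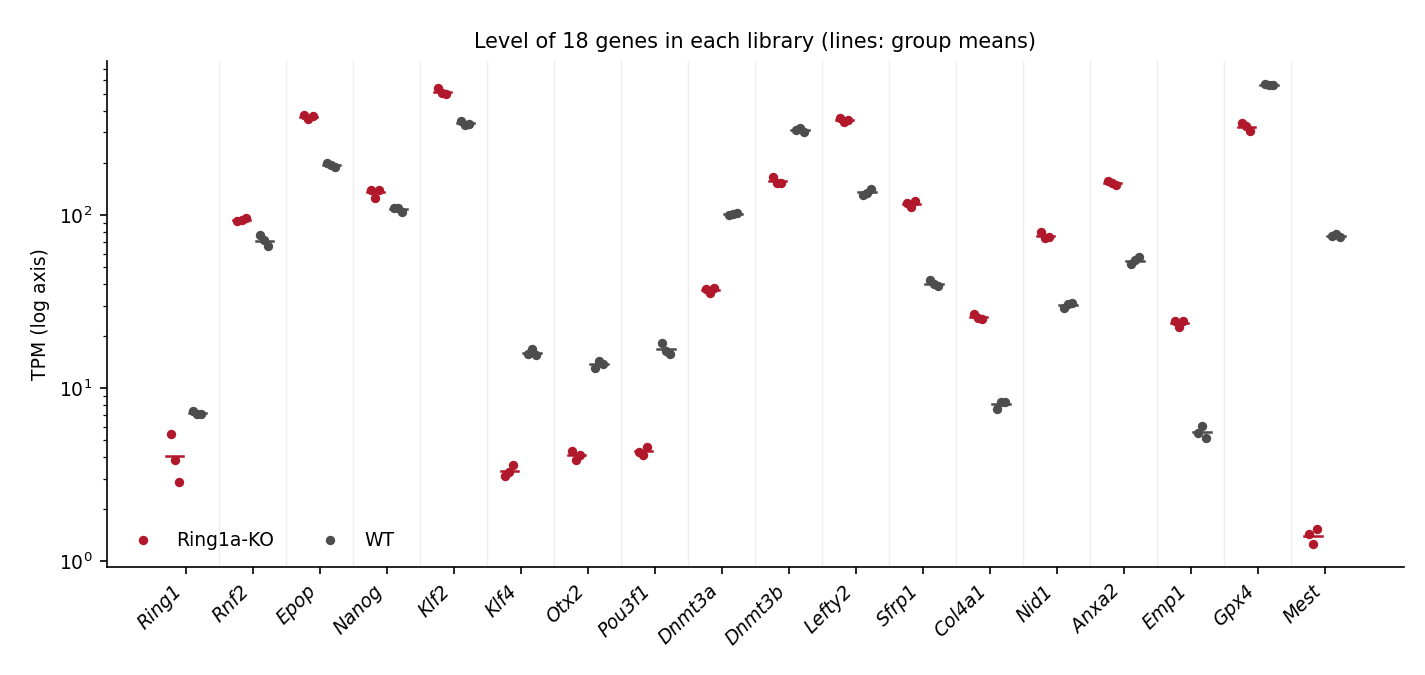
Level of 18 genes in each library (TPM, log axis), with Ring1a-KO left of WT for each gene, 1 point per library and lines at the group means. Ring1, Klf4, Otx2 and Mest are low in Ring1a-KO, and Lefty2, Sfrp1, Col4a1, Anxa2 and Emp1 are high in it.

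The formative and primed pluripotency genes, which ES cells turn on as they leave the naive state, fell more often than they rose. Of 23 tested, 11 fell, 1 rose and 11 were not called, the median difference was -0.30 against 0.01 over all genes, and 7 fell at least 2-fold. Their summed level was 655 to 689 TPM in the Ring1a-KO libraries and 1108 to 1115 TPM in the WT libraries. Otx2, a homeobox regulator of formative enhancers, had 4.35, 3.85 and 4.09 TPM in Ring1a-KO and 13.10, 14.44 and 13.87 TPM in WT (-1.54 ± 0.10, adjusted p = 3.41e-08). Pou3f1 (Oct6), a POU factor of the formative state, had 4.30, 4.10 and 4.57 TPM in Ring1a-KO and 18.15, 16.35 and 15.72 TPM in WT (-1.74 ± 0.06, adjusted p = 7.71e-11). Both were about as far from WT in each Ring1a-KO library. Lef1, a Wnt-responsive transcription factor, had 0.43, 0.35 and 0.40 TPM in Ring1a-KO and 6.08, 5.55 and 6.28 TPM in WT (-2.32 ± 0.18, adjusted p = 3.29e-07). The zinc-finger genes Zic2 and Zic5, which neighbour each other on chromosome 14, fell by 1.13 and 1.07. Tcf15, a basic helix-loop-helix factor, fell by 0.96 to 43.9 ± 4.33 TPM in Ring1a-KO, against 86 ± 8.19 TPM in WT (SD, n = 3 each). The 1 member that rose was Eomes, a T-box gene, by 0.38.

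The de novo DNA methyltransferases were part of that fall. Dnmt3a had 37.64, 35.58 and 37.91 TPM in Ring1a-KO and 100.11, 101.69 and 102.20 TPM in WT (-1.43 ± 0.11, adjusted p = 1.78e-07). Dnmt3b had 165.03, 153.79 and 152.68 TPM in Ring1a-KO and 311.16, 317.09 and 302.74 TPM in WT (-0.98 ± 0.08, adjusted p = 6.46e-07). Neither overlapped between groups. Dnmt3l, their catalytically inactive cofactor, rose by 0.27 to 408 ± 22.9 TPM in Ring1a-KO, against 339 ± 6.16 TPM in WT (SD, n = 3 each). The maintenance enzyme Dnmt1 averaged 102 ± 6.24 TPM in Ring1a-KO and 97.2 ± 2.41 TPM in WT (SD, n = 3 each) and was not called, nor was its partner Uhrf1 (adjusted p = 0.314). Over the whole list of 21 DNA methylation genes, 4 rose and 6 fell. Gadd45a and Gadd45b, stress genes linked to active demethylation, moved oppositely, by -1.42 and 1.06.

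The core pluripotency genes stayed high. Of 18 tested core genes 8 rose and 2 fell. Pou5f1 (Oct4) averaged 1050 ± 43.3 TPM in Ring1a-KO and 1112 ± 9.62 TPM in WT, and Sox2 258 ± 25.2 TPM in Ring1a-KO and 247 ± 6.43 TPM in WT (SD, n = 3 each), and neither was called. Nanog, the homeobox factor of the naive state, had 140.13, 126.11 and 139.01 TPM in Ring1a-KO and 109.53, 110.34 and 103.91 TPM in WT (0.32 ± 0.05, adjusted p = 0.000215). It was higher in every Ring1a-KO library.

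The naive pluripotency genes split, with 9 of 24 higher and 8 lower in Ring1a-KO. Klf2, a Krüppel-like factor downstream of ERK inhibition, had 540.24, 504.11 and 503.10 TPM in Ring1a-KO and 350.82, 329.42 and 335.49 TPM in WT (0.61 ± 0.05, adjusted p = 3.94e-07). Its relative Klf4, which responds to LIF and Stat3, had 3.13, 3.30 and 3.58 TPM in Ring1a-KO and 15.68, 16.80 and 15.63 TPM in WT (-1.97 ± 0.08, adjusted p = 1.96e-10). The 2 factors thus moved in opposite directions without overlap. Zfp42 (Rex1) rose by 0.43 and Tcl1, a cofactor of Akt kinases, by 0.67. Dppa3 (Stella), a maternal factor that guards methylation, fell by 0.94 and Gbx2, a homeobox gene, by 1.11. Klf5 fell by 0.45. Tbx3 was called lower, at 2.67, 1.21 and 1.30 TPM in Ring1a-KO and 5.37, 2.96 and 2.40 TPM in WT, but these ranges overlapped and the call was lost in 5 of 17 settings. Jam2, an adhesion molecule gene on chromosome 16, rose by 0.93.

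Of the 18 PRC1 genes 5 rose and 4 fell, all by less than 2-fold. The number that rose was 1 without WT replicate 2 or WT replicate 3 and 7 with a pseudocount of 0.1 TPM. Besides Rnf2, Pcgf2 (Mel18), a Pcgf subunit of canonical PRC1, rose by 0.22, and so did Cbx2, a chromobox subunit that binds methylated histone H3. The polyhomeotic subunits Phc1 and Phc2 fell by 0.33 and 0.43, and Pcgf6, the Pcgf subunit of a variant PRC1, fell by 0.18. The calls of Pcgf2, Cbx2 and Pcgf6 were lost in 7, 6 and 8 of 17 settings. Of 22 further subunits of variant PRC1, 4 rose and 3 fell, beside 12.3% higher and 10.8% lower over all genes. Bcor, a scaffold of the PRC1 that contains Pcgf1, fell by 0.53 to 9.62 ± 0.364 TPM in Ring1a-KO, against 14.3 ± 0.602 TPM in WT (SD, n = 3 each).

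Of 12 PRC2 genes 4 rose and 1 fell, with the largest difference in the accessory subunit gene Epop. Epop, which links PRC2 to elongin BC in ES cells, had 378.93, 357.98 and 374.16 TPM in Ring1a-KO and 201.15, 195.05 and 189.18 TPM in WT (0.92 ± 0.05, adjusted p = 2.33e-09). The catalytic subunit Ezh2 averaged 102 ± 8.95 TPM in Ring1a-KO and 99.6 ± 5.27 TPM in WT (SD, n = 3 each). Ezh2 was not called, and neither was the core subunit Suz12 (adjusted p = 0.804) or Eed (adjusted p = 0.515). Among further accessory subunits, Aebp2 and Phf1 rose by 0.33 and 0.34, and the histone-binding subunit gene Rbbp4, shared with other complexes, fell by 0.13.

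Hox genes, classical Polycomb targets, gave no call. Of 37 Hox genes tested, none was at 1 TPM in either group and none was called in Ring1a-KO against WT, with 1 at an unadjusted p under 0.05. With a pseudocount of 0.1 TPM, 2 rose and 1 fell. Their summed level was 2.43 to 4.18 TPM in Ring1a-KO and 2.35 to 2.76 TPM in WT. These Hox genes had passed the filter only through the other knockouts, so their values there are not compared. Of 68 other homeobox genes 4 rose and 4 fell in Ring1a-KO against WT, below the 12.3% and 10.8% over all genes, but only 14 of the 68 were at 1 TPM in either group. Summed, these genes were at 64 to 71.1 TPM in Ring1a-KO and 90.9 to 96.5 TPM in WT. Most of that gap lay in the member Gbx2, which averaged 21.4 TPM in Ring1a-KO and 47.5 TPM in WT. The median difference of the list was 0.01. Among all genes, 3054 (17.1%) were higher and 6051 (33.9%) lower in Ring1a-KO than in Ring1b-KO, 51.0% in all. Against Ring1a/b-dKO, in a comparison with the same Ring1a-KO libraries, 2736 (15.3%) were higher and 8502 (47.7%) lower, 63.0% in all.

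These splits depend on the scaling. With TPM the median of all genes was -0.12 in Ring1a-KO minus Ring1b-KO and -0.26 in Ring1a-KO minus Ring1a/b-dKO, and 33.5% and 24.3% of the calls were higher. After median ratio scaling the shares higher were 48.2% (4519 higher and 4849 lower) against Ring1b-KO and 48.9% (5510 higher and 5749 lower) against Ring1a/b-dKO.

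Some genes that were below 1 TPM in WT rose. Of 3622 tested genes below 1 TPM in WT, 247 rose and 36 fell, and 32 rose at least 2-fold. Their choice by a low WT level leaves less room to fall than to rise. Of these 3622 genes 619 reached 1 TPM on average in Ring1a-KO, and the other 3003 were below it in both groups. Among them are genes that passed the filter only with the help of other knockouts. Only 7 genes of the 185 that were called and passed 1 TPM reached 5 TPM in Ring1a-KO. Ceacam20, a cell adhesion molecule, had 2.54, 2.64 and 3.81 TPM in Ring1a-KO and 0.38, 0.17 and 0.45 TPM in WT (1.58 ± 0.20, adjusted p = 4.93e-05). The groups did not overlap. Fbp2, a gluconeogenic enzyme of muscle, averaged 3.11 TPM in Ring1a-KO, 47.3 TPM in Ring1a/b-dKO, 17 TPM in Ring1b-KO and 0.84 TPM in WT.

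Of 21 basement membrane genes 13 rose, 1 fell and 7 were not called, against 12.3% higher and 10.8% lower over all genes, with a median difference of 0.31. Col4a1, a chain of type IV collagen, had 26.99, 25.52 and 24.99 TPM in Ring1a-KO and 7.55, 8.30 and 8.34 TPM in WT (1.57 ± 0.11, adjusted p = 6.78e-08). Its neighbour and partner chain Col4a2 rose by 1.39. Nid1 (nidogen), which links laminin to collagen, had 80.09, 73.34 and 74.40 TPM in Ring1a-KO and 29.16, 30.65 and 31.00 TPM in WT (1.30 ± 0.12, adjusted p = 1.73e-06). The laminin chains Lama1 and Lamb1 rose by 1.07 and 0.60 and the proteoglycan Hspg2 (perlecan) by 1.02. The 1 member that fell was Serpinh1, a collagen chaperone, by 0.38. Markers of primitive endoderm, a cell type that makes much basement membrane, summed to 3.56 to 4.04 TPM in Ring1a-KO and 2.8 to 3.17 TPM in WT. Fibroblasts also make such matrix: of 12 tested fibroblast genes 6 rose and none fell (3 without Ring1a-KO replicates 2 and 3), at a summed 63.7 to 69.1 TPM in Ring1a-KO and 50.3 to 54.3 TPM in WT. The defining fibroblast markers split. Col1a1 averaged 1.69 TPM in Ring1a-KO and 0.917 TPM in WT, and Thy1 14 and 11.8 TPM. Col1a2 averaged 0.26 and 0.567 TPM, Col3a1 0.0667 and 0.513 TPM and Postn 0.02 and 0.03 TPM. The part of either cell type in the matrix genes was not tested. Of the whole primitive endoderm list of 21, 4 rose and 2 fell, but only 8 of the 21 were at 1 TPM in either group. With the filter applied within Ring1a-KO and WT alone, 8 members were tested, of which 4 rose and 2 fell. Its defining genes Gata4 and Gata6 were not called. Gata4 averaged 0.42 TPM in Ring1a-KO and 0.507 TPM in WT, and Gata6 0.177 and 0.0967 TPM. Of the other markers of this cell type, Foxa2 averaged lower in Ring1a-KO, and Sox17, Sox7, Pdgfra and Dab2 averaged higher. All but Dab2 were below 1 TPM on average in both groups.

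Epithelial, adhesion and cytoskeleton genes were more often higher than lower, with 17 of 35 higher, 4 lower and a median difference of 0.30 against 0.01 over all genes. Emp1, an epithelial membrane protein, had 24.56, 22.69 and 24.37 TPM in Ring1a-KO and 5.54, 6.02 and 5.15 TPM in WT (1.92 ± 0.06, adjusted p = 1.19e-11). Anxa2, a calcium-dependent membrane-binding annexin, had 158.36, 152.23 and 148.88 TPM in Ring1a-KO and 51.99, 55.02 and 56.92 TPM in WT (1.47 ± 0.04, adjusted p = 4.03e-12). S100a11 rose by 0.65, Anxa1 by 1.01 and Tgm2, a protein-crosslinking transglutaminase, by 1.42. E-cadherin did not differ detectably: Cdh1 averaged 152 ± 6.9 TPM in Ring1a-KO and 151 ± 1.6 TPM in WT (SD, n = 3 each). Epcam, another epithelial adhesion molecule, fell by 0.24. Larger falls in the list were those of Cnn1 by 1.02, Tpm2 by 0.63 and Lgals1 by 0.56.

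Of 27 trophoblast genes 15 rose, 3 fell and 9 were not called, with a median difference of 0.32. The list summed to 917 to 958 TPM in Ring1a-KO and 709 to 713 TPM in WT. The transcription factor Elf5 had 1.27, 1.04 and 1.26 TPM in Ring1a-KO and 0.16, 0.17 and 0.36 TPM in WT (0.83 ± 0.15, adjusted p = 0.00114). Gata2 had 3.94, 2.53 and 1.64 TPM in Ring1a-KO and 0.83, 0.91 and 0.85 TPM in WT (0.94 ± 0.19, adjusted p = 0.00242). Both factors lay higher in every Ring1a-KO library, Gata2 with a wide spread. The imprinted growth regulator Phlda2 rose by 1.0 and the keratin Krt8 by 0.56. Cdx2, a defining regulator of the lineage, averaged 0.0767 TPM in Ring1a-KO and 0.147 TPM in WT and was not called. The 3 list members that fell were Peg10, Slc2a3 and Tfap2c, by 0.40, 0.35 and 0.31. The 6 marker genes of trophoblast summed to 23.3 to 24.6 TPM in Ring1a-KO and 23.7 to 24.4 TPM in WT. Opposite moves lie within this sum. Tfap2c averaged 14.7 TPM in Ring1a-KO and 18.4 TPM in WT, while Hand1 averaged 4.29 and 2.45 TPM and Eomes 3.3 and 2.31 TPM.

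**Figure D3:**
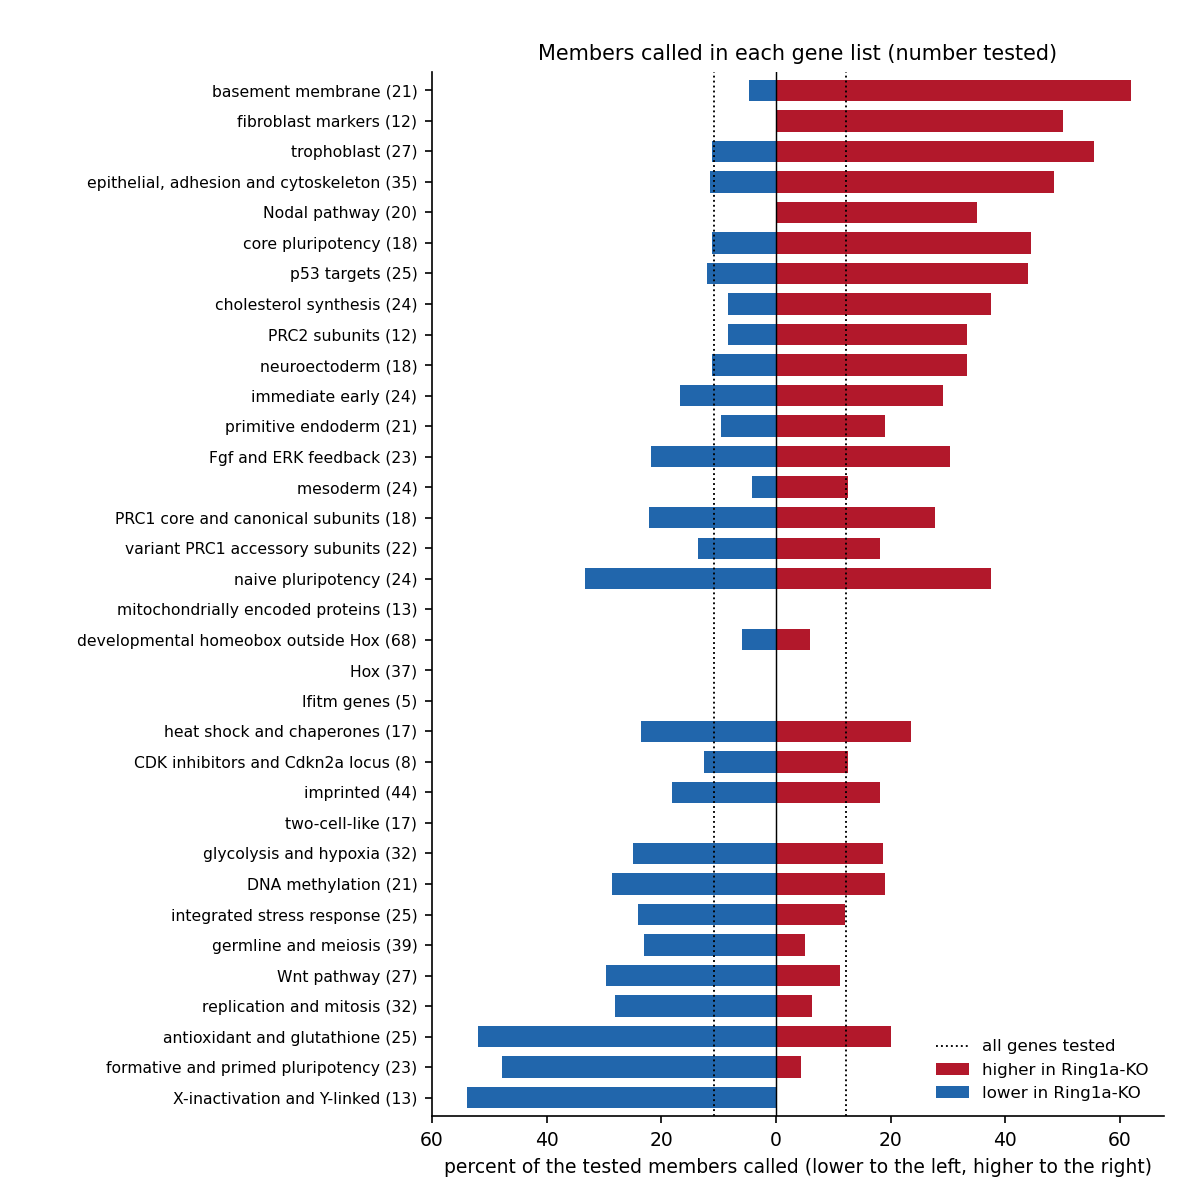
Share of tested members called higher and lower in Ring1a-KO against WT for each gene list (percent of members), with dotted lines at the shares over all genes, 12.3% higher and 10.8% lower. Basement membrane, epithelial and trophoblast lists reach far to the higher side, and formative and antioxidant lists to the lower side.

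Signalling genes moved in several pathways, to be read beside 12.3% higher and 10.8% lower over all genes. In the Nodal pathway 7 of 20 rose and none fell, and over the 17 alternative settings 4 to 9 rose and at most 1 fell. Lefty2, a secreted Nodal antagonist, had 361.40, 344.80 and 353.45 TPM in Ring1a-KO and 131.37, 133.43 and 141.96 TPM in WT (1.38 ± 0.11, adjusted p = 3.84e-07). Its close paralogue and neighbour Lefty1 averaged 185 ± 10.7 TPM in Ring1a-KO and 194 ± 7.75 TPM in WT (SD, n = 3 each) and was not called, and the ligand Nodal rose by 0.21. Reads shared by the closely similar Lefty genes could be split between them by the authors' counting.

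In the Wnt pathway 3 of 27 rose and 8 fell, against 12.3% higher and 10.8% lower over all genes. Sfrp1, a secreted inhibitor of Wnt ligands, had 117.86, 111.01 and 120.97 TPM in Ring1a-KO and 42.00, 39.73 and 38.81 TPM in WT (1.51 ± 0.07, adjusted p = 1.95e-09). The feedback target Axin2 fell by 0.71, to 1.04 ± 0.104 TPM in Ring1a-KO, against 2.34 ± 0.258 TPM in WT (SD, n = 3 each). Sp5, a target of beta-catenin, fell by 1.13 and the ligand Wnt8a by 1.45. In the Fgf and ERK pathway 7 of 23 rose and 5 fell, against 7 and 8 after median ratio scaling. Egr1, an immediate early gene downstream of ERK, had 4.49, 4.32 and 4.04 TPM in Ring1a-KO and 15.81, 15.46 and 16.54 TPM in WT (-1.68 ± 0.06, adjusted p = 1.46e-10). Spry4, a feedback inhibitor of the same pathway, rose by 0.56, while Spry2 and Etv4 of the same list fell by 0.38 and 0.39.

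Antioxidant and glutathione genes were mostly lower. Of 25 tested, 13 fell and 5 rose, with a median difference of -0.20. Many of them are known targets of Nrf2, a factor that binds the antioxidant response element, TGACNNNGC. Because the list moved mainly one way, the promoters of its members were read. Of 26 members 21 had a RefSeq promoter (build GRCm38.p6), and the 250 bases before the start were searched on both strands. A match occurred in 3 of 10 lower members, in 1 of 4 higher members and in 3 of 6 uncalled members. Among promoters of all tested genes 14% had a match, and among those of called lower genes 15.6%. A match is a description of the letters and not a binding site. The stretches around the match in the 3 lower members and in Sod1 are shown on the sense strand of the gene, 5′ to 3′, with the motif or its reverse complement GCNNNGTCA in capitals. The first base of the match lies 134 bases before the start in Gclm, 92 in Txnrd1, 79 in Mt2 and 56 in Sod1.
Gclm (chr3:122245408-122245447, plus strand): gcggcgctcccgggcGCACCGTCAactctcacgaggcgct
Txnrd1 (chr10:82859099-82859138, plus strand): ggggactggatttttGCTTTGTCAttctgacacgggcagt
Mt2 (chr8:94172524-94172563, plus strand): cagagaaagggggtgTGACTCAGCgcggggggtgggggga
Sod1 (chr16:90220691-90220730, plus strand): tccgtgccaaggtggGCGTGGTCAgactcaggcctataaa

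Gclm, the modifier subunit of the enzyme that limits glutathione synthesis, had 79.77, 71.75 and 82.58 TPM in Ring1a-KO and 115.97, 120.33 and 111.12 TPM in WT (-0.57 ± 0.05, adjusted p = 2.58e-06). Txnrd1, thioredoxin reductase, averaged 168 ± 7.82 TPM in Ring1a-KO and 247 ± 4.91 TPM in WT (SD, n = 3 each), and the metallothionein Mt2 969 ± 29.8 TPM in Ring1a-KO and 1350 ± 40.3 TPM in WT (SD, n = 3 each). Gpx4, which reduces lipid peroxides, had 340.91, 327.19 and 306.32 TPM in Ring1a-KO and 573.50, 563.00 and 566.61 TPM in WT (-0.81 ± 0.05, adjusted p = 9.05e-09). None of these 4 genes overlapped between the groups. Nqo1, a quinone reductase, fell by 0.72, Hmox1, the haem oxygenase, by 0.55 and Gclc, the catalytic partner of Gclm, by 0.50. Sod1, superoxide dismutase on chromosome 16, rose by 0.19, a call lost in 7 of 17 settings.

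Of 44 imprinted genes 8 rose and 8 fell, with a median difference of 0.01, beside 12.3% higher and 10.8% lower over all genes. Besides Mest, Snrpn, a splicing protein gene expressed from the paternal allele, fell by 0.91 to 75.4 ± 5.95 TPM in Ring1a-KO, against 142 ± 5.45 TPM in WT (SD, n = 3 each). Igf2, a fetal growth factor expressed from the paternal allele, rose by 0.69, and H19, its maternally expressed neighbour, had 0.75, 0.79 and 0.93 TPM in Ring1a-KO and 0.46, 0.26 and 0.14 TPM in WT (0.51 ± 0.10). Both members of that pair therefore rose.

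Of 39 germline genes 9 fell and 2 rose, with 3 to 10 lower over the alternative settings. Only 26 of the 39 were at 1 TPM in either group. Piwil2, a piRNA-binding protein, rose by 0.74, and Smc1b, a meiotic cohesin, had 0.56, 0.55 and 0.73 TPM in Ring1a-KO and 2.41, 1.74 and 1.62 TPM in WT (-0.85 ± 0.21, adjusted p = 0.00803). Dazl, a germ cell RNA-binding protein, averaged 0.997 TPM in Ring1a-KO, 11.7 TPM in Ring1a/b-dKO, 87 TPM in Ring1b-KO and 1.09 TPM in WT, and it was not called in Ring1a-KO against WT. None of 17 genes of the 2-cell-like state was called, and none had an unadjusted p under 0.05. None of the 17 was at 1 TPM in either group, and they had passed the filter only through the other knockouts. Summed, that list was at 0.58 to 0.84 TPM in Ring1a-KO and 0.41 to 0.72 TPM in WT. At such levels a call was hardly possible, so its absence says little. Of 24 mesoderm genes 3 rose and 1 fell, beside 12.3% higher and 10.8% lower over all genes, and 7 were at 1 TPM in either group. Kdr, a receptor for vascular endothelial growth factor, fell by 1.31, and the transcription factors Gata2, Hand1 and Eomes rose by 0.94, 0.62 and 0.38. Of 18 neuroectoderm genes, 10 of them at 1 TPM in either group, 6 rose and 2 fell. Map2 was up by 1.13 and the adhesion molecule Ncam1 by 0.91. The 2 that fell were the neural regulators Neurod1, by 0.45, and Neurog1, by 0.28, a call lost in 6 of 17 settings for Neurog1.

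Genes of growth and stress changed modestly, and over all genes 12.3% were higher and 10.8% lower. Of 25 p53 targets 11 rose and 3 fell. The desmosomal protein gene Perp rose by 0.65, the cell cycle inhibitor Cdkn1a (p21) by 0.22, and Mdm2, which degrades p53, was not called (adjusted p = 0.931). Cdkn2a, a Polycomb-repressed cell cycle inhibitor locus, averaged 15.4 TPM in Ring1a-KO, 67 TPM in Ring1a/b-dKO, 50.5 TPM in Ring1b-KO and 14.5 TPM in WT, and it was not called in Ring1a-KO against WT (adjusted p = 0.583). Of 32 replication and mitosis genes 9 fell and 2 rose, and 1 fell with Ring1a-KO replicate 1 as the only Ring1a-KO library. The cyclin gene Ccne1 fell by 0.40 and the helicase subunit Mcm2 by 0.22, a call lost in 5 of 17 settings. Of 24 cholesterol synthesis and uptake genes 9 rose and 2 fell, and Sqle, squalene epoxidase, rose by 0.31.

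Genes of chromosome 16, a chromosome that stood out once the values were seen, were higher along its whole length. Over its 425 genes at 1 TPM or more in either group the median difference was 0.21, and 168 (39.5%) were called higher and 17 (4%) lower. The medians of the 18 other autosomes lay between -0.04 and 0.05. Relative to the other autosomes the median of chromosome 16 was 0.192, 0.188 and 0.218 in the Ring1a-KO libraries and 0.001, 0.001 and -0.006 in the WT libraries. The groups did not overlap, but the chromosome was picked for these values, so no test is given. Along the chromosome the medians of 4 equal parts were 0.16, 0.21, 0.23 and 0.26. The same measure was 0.222 to 0.228 in Ring1a/b-dKO, -0.216 to -0.260 in Ring1b-KO, 0.262 to 0.302 in Pcgf-4KO and 0.249 to 0.312 in Pcgf-6KO, and its sign was thus opposite in Ring1b-KO. Jam2, Dppa4, Usp7 and Sod1 are chromosome 16 genes. Outside chromosomes 16 and Y 3926 genes were called, 2024 higher and 1902 lower.

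**Figure D4:**
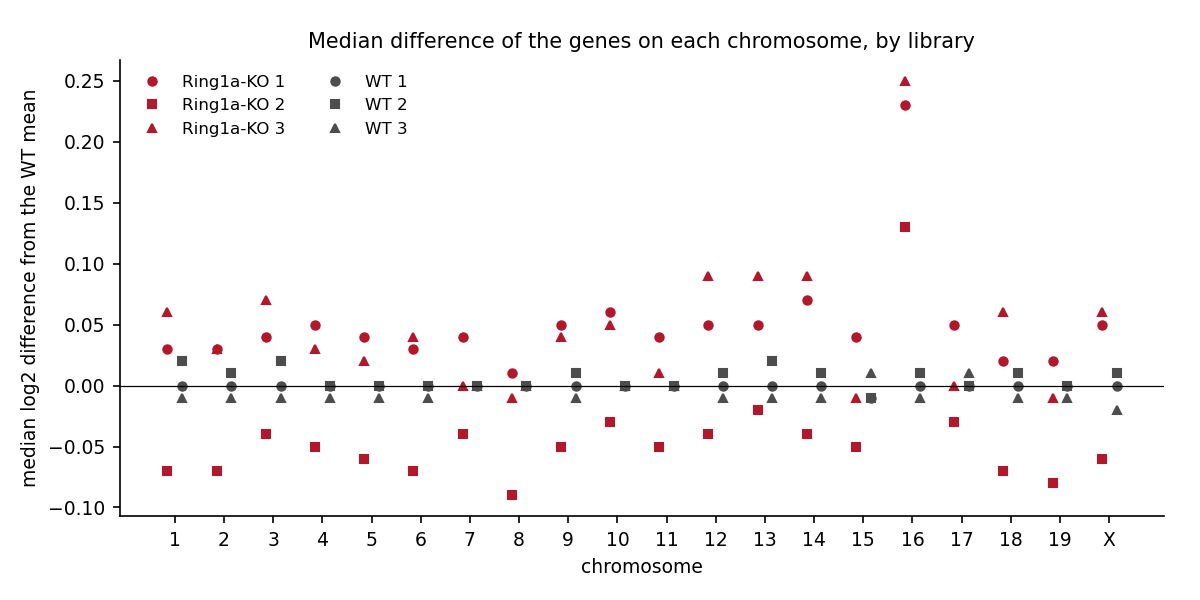
Median log2 difference from the WT mean over the genes of each chromosome at 1 TPM or more in either group (vertical axis), with 1 point per library of Ring1a-KO and WT for the autosomes and X (horizontal axis). Chromosome 16 stands above the rest in all 3 Ring1a-KO libraries.

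Most Y chromosome genes were lower in Ring1a-KO. Eif2s3y, a translation initiation factor subunit, had 0.00, 0.16 and 0.05 TPM in Ring1a-KO and 40.55, 43.62 and 41.38 TPM in WT (-5.33 ± 0.11, adjusted p = 1.48e-13). Uty, a histone demethylase homologue, was listed at 0 in all 3 Ring1a-KO libraries and had 7.21, 6.90 and 6.31 TPM in WT. Ddx3y, an RNA helicase, had at most 0.02 TPM in Ring1a-KO and 16.79 to 19.05 TPM in WT. Of 13 Y chromosome genes at 1 TPM or more in either group, 9 were lower. Gm28595, a non-coding Y gene, stayed present at 8.23, 7.05 and 9.62 TPM in Ring1a-KO and 13.38, 17.77 and 10.20 TPM in WT and was not called (adjusted p = 0.0692). Kdm5d and Uba1y, also on the Y chromosome, averaged 0.0767 and 0.00667 TPM in Ring1a-KO and 2.88 and 2.99 TPM in WT. Eif2s3y averaged 0.0867 TPM in Ring1a/b-dKO and 1.98 TPM in Ring1b-KO, where Ddx3y was at 3.68 TPM. Mid1, an X-linked ubiquitin ligase gene at the pseudoautosomal boundary, had 1.52, 1.54 and 1.40 TPM in Ring1a-KO and 62.55, 61.39 and 63.42 TPM in WT (-4.67 ± 0.11, adjusted p = 3.79e-13). Mid1 averaged 1.5 TPM in Ring1a/b-dKO and 54.8 TPM in Ring1b-KO. Gm47283, which is annotated on Y, had means in the same order as Mid1: 1.82 TPM in Ring1a-KO, 1.86 TPM in Ring1a/b-dKO, 29.9 TPM in Ring1b-KO and 27.2 TPM in WT. The genotype and the history of the cell line cannot be told apart for these genes, for chromosome 16 or for any other difference here.

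A second comparison labelled as loss of Ring1a, with Ring1b already missing, is Ring1a/b-dKO against Ring1b-KO. Genotype and history of the cell line cannot be told apart in it either. This comparison shares no library with Ring1a-KO against WT. It called 10692 genes (59.9%), 7334 higher and 3358 lower, with a median of 0.17 over all genes. With median ratio scaling 5390 were higher and 5261 lower. Of the 4123 genes called in Ring1a-KO against WT, 3013 were also called there, which is 73.1% of the first list and 28.2% of the second. The sign was the same for 1748 of them (58.0%), 1185 higher and 563 lower in both, and opposite for 1265. Chromosome 16, most Y genes and Mid1 shifted the same way in both comparisons. Shared signs were not counted without them. Across all tested genes the 2 differences had a Pearson correlation of 0.07 and a Spearman correlation of 0.06, a description over genes that share libraries and are not independent. Of the 151 genes at least 2-fold higher in Ring1a-KO, 53 were higher, 44 lower and 54 uncalled in Ring1a/b-dKO against Ring1b-KO. Of the 151 at least 2-fold lower, 60 were lower, 38 higher and 53 uncalled.

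Several genes described above differed in direction between the backgrounds. Emp1 and Anxa2 rose on both, with Ring1a/b-dKO minus Ring1b-KO at 2.14 ± 0.06 for Emp1 and 2.09 ± 0.04 for Anxa2. Mest was lower on both and fell by 3.95 in Ring1a/b-dKO against Ring1b-KO, where Otx2 fell by 1.41. Emp1 and Mest are also among the genes named for a shared call on both backgrounds, so their agreement follows from that choice. In contrast Lefty2, higher in Ring1a-KO, was at 81.5 ± 1.52 TPM in Ring1a/b-dKO and 407 ± 18.2 TPM in Ring1b-KO (-2.30 ± 0.11, adjusted p = 1.67e-10). Nanog was at 36.3 ± 1.86 TPM in Ring1a/b-dKO and 387 ± 10.6 TPM in Ring1b-KO (SD, n = 3 each). Pou3f1 and Egr1, both lower in Ring1a-KO, were higher in Ring1a/b-dKO than in Ring1b-KO, by 1.08 and 1.88. The difference between the backgrounds was not itself tested for these genes.

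**Figure D5:**
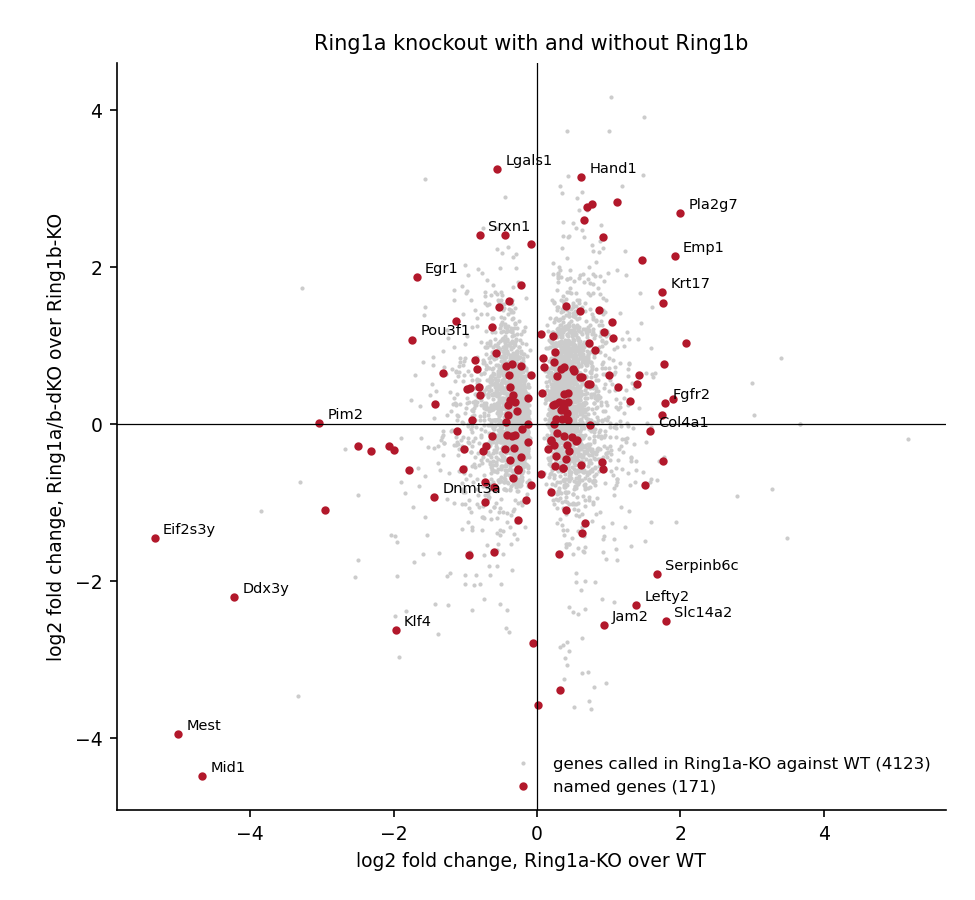
Difference in Ring1a-KO minus WT (horizontal axis) against Ring1a/b-dKO minus Ring1b-KO (vertical axis), both log2(TPM + 1), for the 4123 genes called in Ring1a-KO against WT, with the 171 genes chosen by the naming rule in red. The points fill all quadrants, and 1748 genes share the sign of their call on both axes.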

How the data were processed

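The authors deposited 1 table of TPM for 18 libraries and group means, which were not used beyond a check that they equal the means of the libraries. TopHat2 2.1.1, RSEM, edgeR and the build GRCm38.p5 are named in the submitters' processing notes, with no role or order given. RNA was extracted with Trizol from trypsinized cells and libraries were made with a TruSeq kit, per the labels' protocols. Genes were kept at 1 TPM or more in at least 3 of 18 libraries. Log2(TPM + 1) was fitted with limma 3.58.1 in R 4.3.3 with 1 mean per group over all 18 libraries and a trended prior, which leaves 12 residual degrees of freedom. Counts and depth are unknown, so no counting error is given. The fit was checked on simulated data. Named genes are Ring1 and Rnf2, the 12 largest called rises and falls without overlap at 5 TPM or more (leaving out clone-named genes such as those starting with Gm, small RNA and pseudogenes), up to 3 called rises and 3 falls at 2 TPM or more from each of 34 gene lists, 15 regulators fixed by name, and the 6 largest rises and falls shared with Ring1a/b-dKO against Ring1b-KO (171 genes). Another 50 genes were chosen after their values were seen, and some results are not reported here. The members and lists were chosen with earlier results of these data known. Promoters came from RefSeq (GRCm38.p6).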

Additional observations from a re-analysis of the deposited data

Results flagged for a closer look

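Short structural RNA and rRNA took 2.88% of TPM in Ring1a-KO replicate 2 and 1.32% in Ring1a-KO replicate 3, a signal outside the messenger RNA measurement and above the highest WT library at 0.452%. Ring1a-KO replicate 1 was at 0.21%. Groups of 3 libraries are too small for the test of a single outlying library, which was not run.

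Among the 12 largest rises and falls of Ring1a-KO against WT, 3 genes had all libraries on opposite sides in the 2 comparisons, and the difference between the comparisons was not tested. The urea transporter gene Slc14a2 was at -2.51 in Ring1a/b-dKO against Ring1b-KO and at 1.80 in Ring1a-KO against WT (log2). Pcolce2, an enhancer of procollagen processing, was at -0.47 in Ring1a/b-dKO against Ring1b-KO and at 1.76 in Ring1a-KO against WT. The serpin gene Serpinb6c was at -1.91 in Ring1a/b-dKO against Ring1b-KO and at 1.67 in Ring1a-KO against WT.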

How the results depend on the processing

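Over 17 alternative settings none of the 199 called genes among the 221 named changed direction, and 138 of the 199 kept their call in every setting that tested them. Apoe lost its call in 12 settings, Tfdp1 in 11 and Esrrb in 10. Leaving out Ring1a-KO replicates 2 and 3 together left 1 Ring1a-KO library, whose spread is taken from the other groups, and gave 2169 calls, 1412 higher and 757 lower. A pseudocount of 0.1 TPM gave 760 genes with at least a 2-fold change, since it enlarges the folds of low genes. Without Ring1a-KO replicate 1 Ring1 stood at -0.93 and was called (adjusted p = 0.0417), and its value ranged from -0.93 to -0.56 with 1 library left out and from -0.86 to -0.35 in the other settings. The cause was not tested. With 1 library left out in turn, the genes called ranged from 3242 to 3620, those higher from 1693 to 2220, those lower from 1365 to 1901 and those with a 2-fold change from 294 to 358. The same ranges were 8297 to 8554 against Ring1b-KO, 10515 to 10722 against Ring1a/b-dKO and 9795 to 9992 for Ring1a/b-dKO against Ring1b-KO. With only the Ring1a-KO and WT libraries in the fit, 3178 genes were called, 1750 higher and 1428 lower. In that setting 36 of the named genes lost their call. With the replicate number as a block 3994 genes were called and Ring1 stayed at -0.73. Deviations of libraries with the same number correlated at 0.017, 0.011 and 0.038, so the numbers were not taken as pairs. Leaving out small RNA, rRNA and mitochondrial genes, chosen after seeing the data, gave 4180 calls. Read depth is unknown, so low TPM values carry an unknown counting error.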

Other observations

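Stress and signal-response genes gave further values of Ring1a-KO against WT, where 12.3% of all genes were higher and 10.8% lower. Of 24 immediate early genes 7 rose and 4 fell in Ring1a-KO. Nr4a1, an orphan nuclear receptor, had 33.94, 29.49 and 30.99 TPM in Ring1a-KO and 13.54, 14.96 and 15.90 TPM in WT (1.04 ± 0.07, adjusted p = 3.41e-08). Its libraries did not overlap between groups. Of 17 heat shock and chaperone genes 4 rose and 4 fell, and the small heat shock protein gene Cryab rose by 1.11 to 8.17 ± 1.17 TPM in Ring1a-KO, against 3.22 ± 0.24 TPM in WT (SD, n = 3 each).

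Of 25 genes of the integrated stress response, a programme that slows translation, 3 rose and 6 fell, and without Ring1a-KO replicates 2 and 3 the counts were 3 and 2, from a fit with 1 Ring1a-KO library. Of 32 glycolysis and hypoxia genes 6 rose and 8 fell, against 11 and 7 with nuclear protein-coding genes only. Ldhb, a lactate dehydrogenase subunit, had 98.25, 89.38 and 83.55 TPM in Ring1a-KO and 156.61, 156.41 and 158.05 TPM in WT (-0.79 ± 0.06, adjusted p = 1.63e-07).

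None of the 13 protein genes encoded in mitochondria was called by limma, with 1 at an unadjusted p under 0.05, while 3 were lower after median ratio scaling.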
